A study of Mus musculus with 24 samples.

Results

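The 9 genes described here encode the chains of fibrinogen (Fga, Fgb and Fgg), the plasminogen activators urokinase and tissue-type activator (Plau and Plat), the urokinase receptor (Plaur), tissue factor (F3), thrombomodulin (Thbd) and the endothelial protein C receptor (Procr). They were taken by gene symbol from a table of 14785 genes measured by bulk RNA sequencing of mouse kidney, and all 9 had a row. Fgg was chosen because it fell between day 2 and day 7 of ureter obstruction, so its UUO2 and UUO7 values, and ratios that hold them, are given as a description with no p. Comparisons with sham share the same 4 sham libraries.

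The study used reversible unilateral ureter obstruction, in which 1 ureter is tied and later reimplanted so that the kidney can recover. All animals were male C57/BL6 mice, 8 to 9 weeks old at the start, with no transgene or genetic alteration named. The 6 groups had 4 mice each, sequenced out of 10 per group. They were sham surgery, obstruction for 2 days (UUO2), obstruction for 7 days (UUO7), and 7 days of obstruction followed by reversal and 1 week (R1W), 2 weeks (R2W) or 4 weeks (R4W) of recovery. The labels give whole kidney as the tissue and the title of the series names the cortex. R4W replicate 2 has a title placing it at 4 weeks and a treatment label placing it at 2 weeks, and it was grouped by its title.

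Fibrinogen is a plasma protein of paired Aα, Bβ and γ chains, made mainly by the liver and raised in the acute-phase response, and thrombin cleaves it to fibrin. Tissue factor starts coagulation by binding factor VII. Thrombomodulin redirects thrombin from fibrinogen to protein C, and the endothelial protein C receptor presents protein C to that complex. Urokinase and tissue-type plasminogen activator turn plasminogen into plasmin, which dissolves fibrin, and the urokinase receptor holds urokinase on the cell surface. In the healthy kidney, tubule cells are a known source of urokinase, and thrombomodulin and the protein C receptor are known for their presence on blood vessels.

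Values are FPKM, a measure of fragments that accounts for the length of the transcript and for depth, so levels can be compared between genes. Fold changes and their SE come from limma on log2(FPKM + 1), a scale that understates changes of weakly expressed genes, and calls were made at an adjusted p below 0.05 (Benjamini-Hochberg, over all 14785 genes). Ratios of group means are given as folds. The 20 libraries outside UUO2 had steps in their low values that correspond to between 24400000 and 35300000 counted fragments, and no such steps were found in the 4 UUO2 libraries. The UUO2 libraries also had 2343 to 2832 FPKM of mt-Rnr1, a mitochondrial ribosomal RNA, against 342 to 709 in the others, and the labels number their samples with another code. The design text speaks of 20 libraries, and 24 are analysed here. These differences and 2 days of obstruction cannot be told apart. Proximal tubule markers were abundant in sham kidneys, with a summed level of 3682 to 4195 FPKM over 6 genes. Sham replicate 2 had a summed level of 39.5 FPKM of 6 urothelium markers, against 1.74 to 3.10 in the other sham libraries. Its mean log2 level of 6 adipose markers was 4.53, against at most 1.04 in the other sham libraries. UUO2 replicate 2 had a mean log2 level of 9 injured tubule markers of 5.42, against 6.19 to 6.55 in the other UUO2 libraries. R4W replicates 1 and 3 had summed adipose markers of 1705 and 418 FPKM, against 62.5 and 69.9 in the other R4W libraries. In whole tissue, fewer cells of a type and less RNA per cell cannot be told apart, and this applies to every level given here.

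The 3 fibrinogen genes showed the largest changes of the 9 genes at day 2, and the means of all 3 were lower by the first week after reversal. They lie together within 42.1 kb of chromosome 3. Fgg (ENSMUSG00000033860.13) spans positions 83007724 to 83015049 and Fga (ENSMUSG00000028001.16) spans 83026076 to 83033627, both on the plus strand of GRCm38. Fgb (ENSMUSG00000033831.5) spans 83040141 to 83049863 on the minus strand. The annotation also places Gm30097, a long noncoding RNA on the opposite strand, across the start of Fgg at positions 82926665 to 83008488, and whether the counting used strand is not given in the sources used here. The sequences upstream of the 3 RefSeq starts (GRCm38.p6) are shown because the genes moved together. Capitals mark matches on either strand to CTGGGAA (the core of an interleukin-6 response element) and TTNCNNAA (a C/EBP motif). They cover chr3:83025903-83026075 on the plus strand for Fga, chr3:83049864-83050113 on the minus strand for Fgb and chr3:83007474-83007723 on the plus strand for Fgg.
Fga: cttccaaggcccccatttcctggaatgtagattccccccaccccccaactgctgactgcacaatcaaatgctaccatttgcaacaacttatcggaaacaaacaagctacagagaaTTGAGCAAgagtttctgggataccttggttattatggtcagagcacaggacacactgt
Fgb: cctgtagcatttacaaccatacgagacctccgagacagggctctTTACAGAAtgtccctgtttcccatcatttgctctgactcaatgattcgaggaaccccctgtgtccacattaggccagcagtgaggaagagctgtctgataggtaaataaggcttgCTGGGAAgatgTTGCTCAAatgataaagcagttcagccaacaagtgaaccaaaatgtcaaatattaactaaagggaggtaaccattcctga
Fgg: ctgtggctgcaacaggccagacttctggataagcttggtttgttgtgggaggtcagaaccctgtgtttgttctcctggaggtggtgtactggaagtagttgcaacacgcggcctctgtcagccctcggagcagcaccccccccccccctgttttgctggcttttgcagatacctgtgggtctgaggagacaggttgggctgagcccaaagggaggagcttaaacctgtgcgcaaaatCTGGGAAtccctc
A RefSeq promoter sequence was held for 6 of the 9 genes. In the 250 bases upstream of each start, CTGGGAA was found at 91 bases in Fgb and at 13 bases in Fgg. The 77 bases nearest the start of Fga lie in an annotated transcript and are not printed. Among 32851 RefSeq promoter windows of the same length, 9.10% held CTGGGAA and 36.8% held TTNCNNAA. Matches to other motifs searched are not marked. They were STAT and TEAD letters in Fga and Fgb, AP-1 in Fgb, NF-kB in Fgg and CACCC in Fga and Fgg. All these matches describe the letters of the windows and do not show that a factor binds there.

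Fgg, the gene of the γ chain, stood at 6.35, 7.31, 6.84 and 6.01 FPKM in the 4 sham kidneys. At 2 days of obstruction it stood at 619.8, 292.6, 714.1 and 665.1 FPKM. At 7 days it stood at 133.4, 139.4, 87.3 and 86.4 FPKM. Every UUO2 library was above every UUO7 library, and every UUO7 library was above every sham library. At day 2 the mean was 86.4-fold the sham mean (log2 fold change 6.16, SE 0.24), and at day 7 it was 16.8-fold (3.85, SE 0.24). From day 2 to day 7 the mean was 5.13-fold lower, which is the step Fgg was chosen for. After reversal the levels were 17.6, 23.0, 23.3 and 22.6 FPKM at 1 week, 12.7, 18.0, 19.8 and 21.6 at 2 weeks, and 18.4, 10.3, 11.04 and 13.3 at 4 weeks. Each recovery library remained above the highest sham library. At 4 weeks Fgg was 2.00-fold the sham mean (log2 fold change 0.87, SE 0.24, adjusted p = 0.00297). With the libraries rescaled to a common median ratio this fold change was 0.54 and was no longer called (adjusted p = 0.0599). In the authors' deposited table it was 0.62 with an adjusted p of 0.00286.

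Fga, the gene of the Aα chain, stood at 13.2, 10.8, 14.2 and 10.3 FPKM in sham kidneys. At 2 days it stood at 390.8, 148.2, 476.9 and 447.4 FPKM, and at 7 days at 100.1, 98.7, 64.1 and 65.9 FPKM. The 3 groups did not overlap. The mean was 30.2-fold the sham mean at day 2 (log2 fold change 4.68, SE 0.27, adjusted p = 4.48e-11) and 6.78-fold at day 7 (2.64, SE 0.27, adjusted p = 2.27e-08). From day 2 to day 7 the mean was 4.45-fold lower. In recovery Fga ranged from 15.2 to 22.4 FPKM at 1 week, from 10.4 to 21.0 at 2 weeks and from 11.5 to 14.4 at 4 weeks. At 4 weeks its range lay mostly within that of sham, the mean was 1.02-fold the sham mean, and the log2 fold change of 0.03 (SE 0.27) was not called (adjusted p = 0.931). Its 95% interval ran from -0.54 to 0.60, and after rescaling the value was -0.32 (adjusted p = 0.329). In the authors' deposited table Fga was lower than sham at that time, with a log2 fold change of -0.37 and an adjusted p of 0.0242.

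Fgb, the gene of the Bβ chain, was the least abundant of the 9 in sham kidneys, at 0.21, 0.24, 0.27 and 0.17 FPKM. At 2 days it stood at 56.2, 29.1, 59.2 and 54.7 FPKM, and at 7 days at 9.70, 9.39, 8.79 and 5.94 FPKM. Again the 3 groups did not overlap. The mean was 224-fold the sham mean at day 2 (log2 fold change 5.33, SE 0.19, adjusted p = 1.23e-14) and 38.0-fold at day 7 (2.93, SE 0.19, adjusted p = 7.74e-11). From day 2 to day 7 the mean was 5.89-fold lower. In recovery it stood at 1.03, 1.53, 1.84 and 1.39 FPKM at 1 week and at 0.84, 0.75, 1.62 and 0.83 at 2 weeks, all above sham, and both were called higher (log2 fold changes 0.99 and 0.70, adjusted p = 0.000105 and 0.00313). With a pseudocount of 10 neither was called (adjusted p = 0.204 and 0.415). At 4 weeks of recovery it stood at 0.40, 0.90, 0.62 and 0.26 FPKM, which overlapped sham at the lowest library. The log2 fold change of 0.32 at that time was not called on the log2(FPKM + 1) scale (adjusted p = 0.147) and was called with a pseudocount of 0.1 (0.91, adjusted p = 0.00956). In the authors' deposited table it was 0.90 with an adjusted p of 0.0460.

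**Figure D1:**
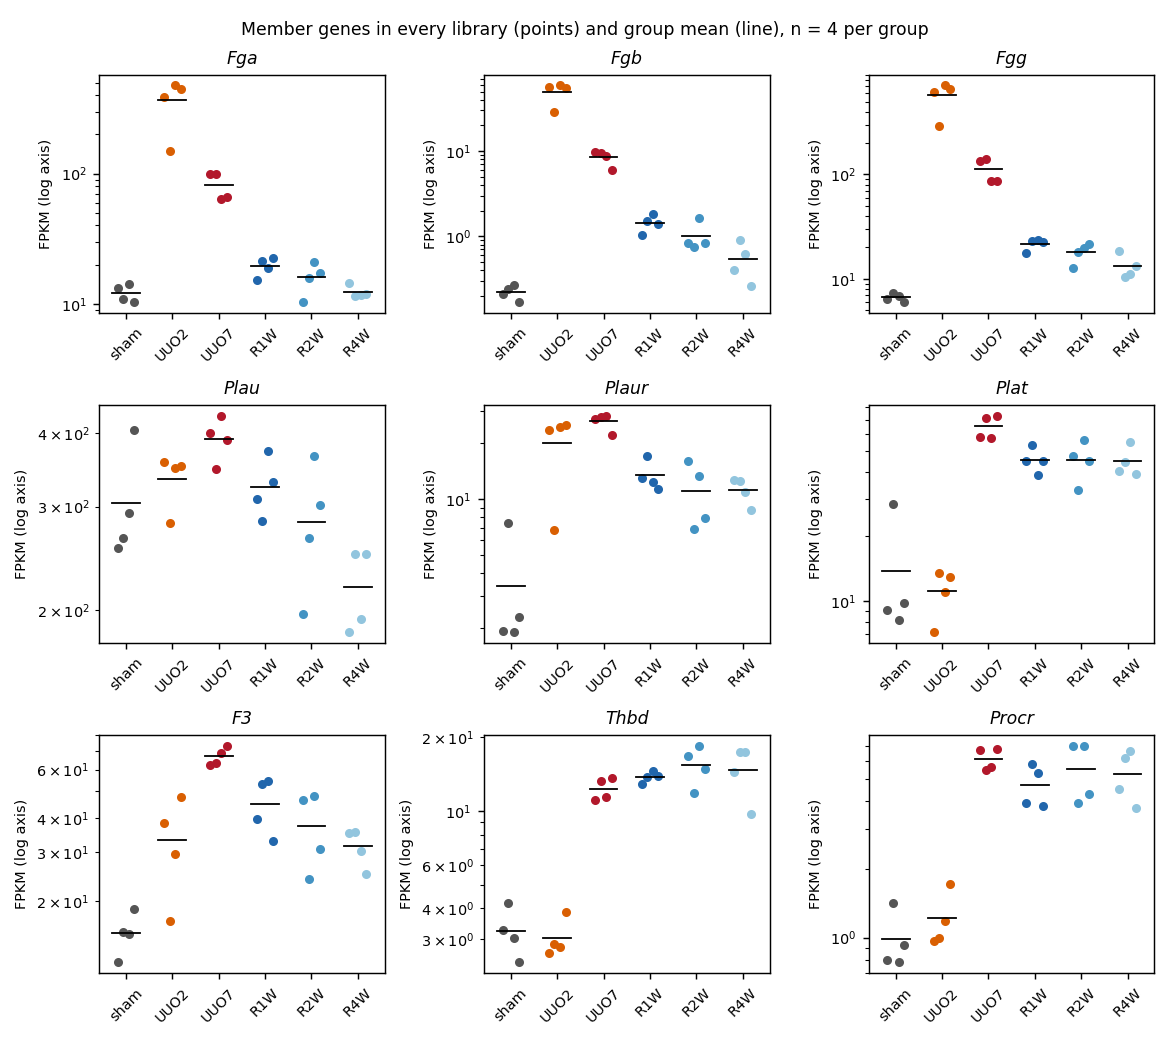
FPKM on a log axis of each of the 9 genes in all 24 libraries, by group, with 1 point per library and a line at the group mean (n = 4 per group). Fga, Fgb and Fgg peak at UUO2 and step down at UUO7 and R1W, whereas Plat, Thbd and Procr are near sham at UUO2 and high from UUO7 to R4W.

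Means of all 3 genes were lower again after reversal. In R1W they were 4.22-fold below UUO7 for Fga, 5.84-fold for Fgb and 5.16-fold for Fgg, with every R1W library below every UUO7 library. The log2 fold changes were -2.005 (SE 0.27, adjusted p = 0.000205) for Fga, -1.94 (SE 0.19, adjusted p = 5.46e-06) for Fgb and -2.29 (SE 0.24) for Fgg, given as a description. Besides Fgg, Fga and Fgb were the only ones of the 9 genes called in this comparison, in which 8.04% of all genes were called lower and 0.413% were called lower by at least 2-fold. A fit on the 8 libraries of these groups alone called 6 of the 9 genes lower, adding Plaur, Plat and F3, and 8.78% of all genes lower. This count of 6 holds Fgg, which was chosen by its day 2 and day 7 values. In the authors' deposited table Plaur, Plat and F3 were also lower in R1W than in UUO7. Their log2 fold changes there were -0.96, -0.49 and -0.53, with adjusted p of 5.81e-10, 0.000108 and 0.000684.

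The 3 chains did not rise in proportion. In sham kidneys Fga made up 63.7% ± 3.7 (SD, n = 4) of the summed fibrinogen FPKM, Fgg 35.1% ± 3.7 and Fgb 1.17% ± 0.14. At 2 days the shares were 36.2% ± 3.2 for Fga, 58.6% for Fgg and 5.22% ± 0.70 for Fgb, of a sum that had gone from 19.0 to 989 FPKM. Fgg had passed Fga as the most abundant of the 3 transcripts. At 7 days Fgg made up 55.1% and Fga 40.7%, and at 4 weeks of recovery 50.1% and 47.7%. The log2 ratio of Fgg to Fga, with 1 FPKM added to each, was -0.78 ± 0.21 in sham, 0.70 ± 0.19 in UUO2, 0.43 ± 0.05 in UUO7 and 0.07 ± 0.22 in R4W (SD, n = 4 each). No library of UUO2, UUO7 or R4W overlapped sham in this ratio. The differences from sham were 1.47 in UUO2 and 1.21 in UUO7, and that of R1W from UUO7 was -0.28. The R4W difference from sham of 0.84 gave p = 0.0286 in a two-sided exact permutation test, the smallest p that 4 against 4 libraries can give (adjusted p = 0.0440 over 20 such tests of ratios). Of these 20 tests 13 gave this smallest p, among them tests of Fgg ratios with UUO2 or UUO7 values. The adjusted p-values of ratios, here and below, therefore lean in part on the values Fgg was chosen by. With a pseudocount of 10 the R4W difference was 0.457 and still had the smallest exact p. Fewer of the 20 tests then reached it, and the adjusted p was 0.0519. The log2 ratio of Fgg to Fgb differed from sham by 0.83 in UUO2 and 0.92 in UUO7, and with a pseudocount of 0.1 the differences were -0.89 and -0.69, so no direction is read from it.

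**Figure D2:**
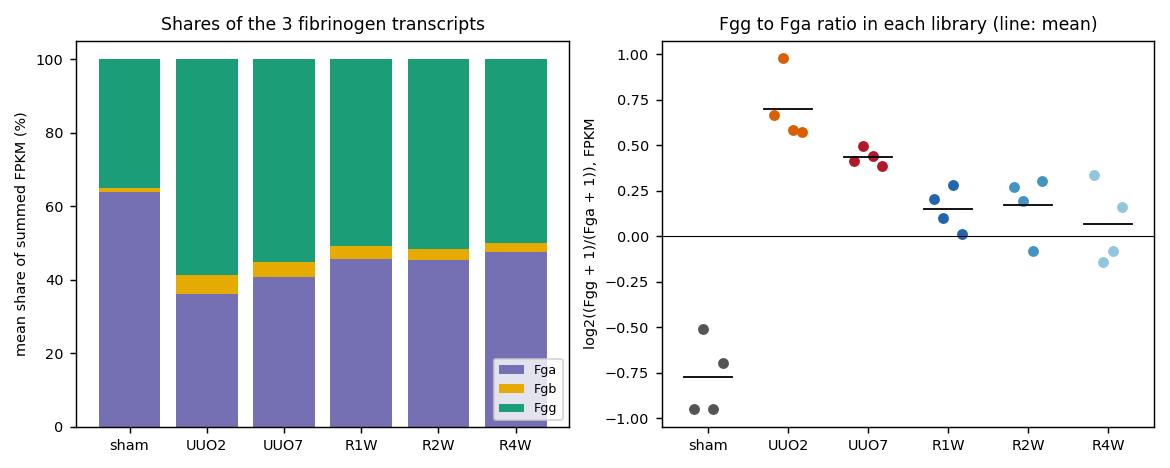
Left, mean share of Fga, Fgb and Fgg in their summed FPKM by group (stacked bars, percent). Right, log2 ratio of Fgg to Fga with 1 FPKM added to each, 1 point per library and a line at the mean. Fga holds 63.7% in sham and 36.2% in UUO2, and the ratio lies below 0 in sham and above 0 in every UUO2 and UUO7 library.

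A neighbouring gene and markers of liver cells were read beside these changes. Plrg1, a splicing factor gene next to Fgb and the only other annotated gene within 200 kb that had a row, went from 16.4 to 17.2 FPKM at day 2 and was not called (log2 fold change 0.07, adjusted p = 0.393). At day 7 it stood at 23.8 FPKM and was called higher (0.52, adjusted p = 4.46e-07), with 0.05 after rescaling. Of 10 hepatocyte markers 6 had a row. Their summed level was 129 to 192 FPKM in sham and 80.7 to 212 in UUO2, and 2 were called higher and 3 lower, where 32.3% of all genes were called higher and 17.0% lower. Alb, the albumin gene and the defining hepatocyte transcript, was 2.32 ± 0.62 FPKM in sham and 1.21 ± 0.32 in UUO2 (SD, n = 4; log2 fold change -0.58, adjusted p = 0.0180). Ttr, the transthyretin gene, was 74.8 ± 20.5 FPKM in sham and 23.6 ± 21.0 in UUO2. The 2 markers called higher were Apoh, the gene of a plasma glycoprotein (log2 fold change 0.59, adjusted p = 0.0414; 0.123 after rescaling), and Fgl1, a fibrinogen-like gene (0.76, adjusted p = 0.000393). All 9 injured tubule markers were called higher in UUO2, with a summed level of 15354 to 26320 FPKM against 469 to 860 in sham, and all 6 proximal tubule markers were called lower. The part of these cell states in the fibrinogen levels was not tested.

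Plau, the urokinase gene (ENSMUSG00000021822.3, chromosome 14, 20836660 to 20843385), was the most abundant of the 9 genes in sham and changed little. It stood at 255.2, 265.3, 292.4 and 404.6 FPKM in sham, 356.6, 282, 349.3 and 351.3 in UUO2, and 400.0, 347.8, 428.2 and 389.3 in UUO7. Sham replicate 4 lay within the UUO7 range. The mean was 1.10-fold the sham mean at day 2 (log2 fold change 0.16, SE 0.16, adjusted p = 0.453). At day 7 the log2 fold change was 0.38 (SE 0.16, adjusted p = 0.0379), below the median of 0.42 over all genes. After rescaling it was -0.10 (adjusted p = 0.604). The call was also lost on leaving out sham replicate 1, 2 or 3 or UUO7 replicate 1, 3 or 4, with adjusted p of 0.119, 0.101, 0.0690, 0.0690, 0.0914 and 0.0607. In the authors' deposited table the log2 fold change of Plau at day 7 was -0.14 with an adjusted p of 0.437. In recovery Plau stood at 308.6, 283.2, 372.2 and 330.2 FPKM at 1 week and at 197.3, 265.9, 365.0 and 301.7 at 2 weeks, overlapping sham, and neither was called (log2 fold changes 0.11 and -0.12). Rescaled, these were -0.34 (adjusted p = 0.0865) and -0.51 (adjusted p = 0.0151). At 4 weeks of recovery Plau stood at 183.9, 249.3, 193.6 and 249.6 FPKM, every library below every sham library. It was the only one of the 9 genes called lower than sham at that time (log2 fold change -0.46, SE 0.16, adjusted p = 0.0171, and -0.84 after rescaling). Leaving out sham replicate 4, R4W replicate 1 or R4W replicate 3 ended the call, with adjusted p of 0.0884, 0.0618 and 0.0524. R4W replicates 1 and 3 had the lowest Plau levels of all 24 libraries and are the libraries with high adipose markers, whose part in this was not tested.

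Plat, the gene of tissue-type plasminogen activator (ENSMUSG00000031538.6, chromosome 8, 22757727 to 22782844), moved at a later time than fibrinogen. It stood at 9.14, 28.2, 8.19 and 9.76 FPKM in sham, where replicate 2 was far above the others. In UUO2 it stood at 7.18, 13.5, 11.01 and 12.9 FPKM and was not called (log2 fold change -0.14, SE 0.26, adjusted p = 0.689, and 0.24 without sham replicate 2). In UUO7 it stood at 58.1, 71.3, 57.6 and 73.1 FPKM, above every sham and UUO2 library. The mean rose 4.71-fold over sham at day 7 (log2 fold change 2.33, SE 0.26, adjusted p = 8.68e-08), and 7.20-fold without sham replicate 2. In recovery Plat ranged from 38.8 to 53.3 FPKM at 1 week, from 33.0 to 56.4 at 2 weeks and from 39.3 to 55.2 at 4 weeks. At 4 weeks it was 3.24-fold the sham mean (log2 fold change 1.80, SE 0.26, adjusted p = 7.75e-06), or 4.96-fold without sham replicate 2. The difference between R4W and UUO7 of -0.53 was not called (adjusted p = 0.102) but was called in a fit on those 2 groups (adjusted p = 0.00758) and with a pseudocount of 10 (adjusted p = 0.0427). In the authors' deposited table it was -0.46 with an adjusted p of 0.000306.

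The ratio of the 2 activators was lower than in sham at day 7 and at 4 weeks of recovery. The log2 ratio of Plau to Plat, with 1 FPKM added to each, was 4.52 ± 0.92 in sham, 4.82 ± 0.49 in UUO2, 2.58 ± 0.29 in UUO7 and 2.26 ± 0.37 in R4W (SD, n = 4 each). The mean FPKM ratio of Plau to Plat was 28.6 in sham, 32.4 in UUO2, 6.13 in UUO7 and 5.01 in R4W. The ratios of UUO7 and R4W did not overlap those of sham, with differences of -1.95 and -2.26 (exact permutation p = 0.0286 each, adjusted p = 0.0440). With a pseudocount of 10 these differences were -1.35 and -1.71, and both still had the smallest exact p. Fewer of the 20 tests then reached it, so the adjusted p was 0.0519 and neither was called. These adjusted p-values also lean in part on the tests of Fgg ratios, as said above. The summed level of 6 urothelium markers was 0.55 to 3.82 FPKM in UUO2, 19.3 to 36.6 in UUO7 and 46.2 to 151 in R4W. Against sham 0 of them were called higher in UUO2, 2 in UUO7 and 6 in R4W, against 32.3%, 60.1% and 54.8% of all genes. Between R4W and UUO7 4 were called higher, against 17.6% of all genes. The summed level of 12 endothelial markers was 157 to 280 FPKM in sham, 95.2 to 236 in UUO2, 553 to 572 in UUO7 and 418 to 509 in R4W. The part of these cells in the Plat level was not tested.

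Plaur, the urokinase receptor gene (ENSMUSG00000046223.10, chromosome 7, 24462484 to 24475968), was called higher from day 2 on. It stood at 1.94, 7.41, 1.91 and 2.31 FPKM in sham, at 23.7, 6.80, 24.5 and 25.3 in UUO2 and at 27.3, 27.8, 28.3 and 22.2 in UUO7. The sham and UUO2 groups overlapped only through replicate 2 of each, both of which stood apart in marker genes. The mean rose 5.92-fold at day 2 (log2 fold change 2.27, SE 0.35, adjusted p = 2.13e-05) and 7.78-fold at day 7 (2.80, SE 0.35, adjusted p = 3.36e-07). Without those 2 libraries the folds were 11.9 and 12.9. In recovery the level was 13.1, 17.2, 12.4 and 11.3 FPKM at 1 week and 16.0, 6.90, 13.4 and 7.95 at 2 weeks, with R2W replicate 2 below the highest sham library. At 4 weeks the level was 12.7, 12.6, 10.9 and 8.73 FPKM, where it was 3.31-fold the sham mean (log2 fold change 1.63, SE 0.35, adjusted p = 0.000442) and 5.47-fold without sham replicate 2. From UUO7 to R4W it fell by 1.17 on the log2 scale (SE 0.35, adjusted p = 0.00940).

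F3, the tissue factor gene (ENSMUSG00000028128.13, chromosome 3, 121723537 to 121735048), rose at both obstruction times. It stood at 12.0, 15.4, 15.1 and 18.6 FPKM in sham and at 38.4, 16.9, 29.7 and 47.6 in UUO2, where replicate 2 lay within the sham range. In UUO7 it stood at 62.5, 63.4, 68.9 and 73.2 FPKM, above every library of both other groups. The mean rose 2.17-fold at day 2 (log2 fold change 0.99, SE 0.25, adjusted p = 0.00238) and 4.39-fold at day 7 (2.08, SE 0.25, adjusted p = 1.80e-07). In recovery it stood at 39.5, 53.3, 54.6 and 33.0 FPKM at 1 week and at 46.4, 24.1, 48.0 and 30.9 at 2 weeks. At 4 weeks it stood at 35.3, 35.6, 30.3 and 25.1 FPKM, all above sham, and the mean was 2.07-fold the sham mean (log2 fold change 1.00, SE 0.25, adjusted p = 0.00148). The fall from UUO7 to R4W was called (log2 fold change -1.07, SE 0.25, adjusted p = 0.00153).

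Plaur and F3 were, besides the fibrinogen genes, the members called higher at day 2, and their upstream sequences are shown for that reason. Capitals mark TGANTCA, an AP-1 motif, on either strand, over chr7:24462233-24462482 for Plaur and chr3:121723287-121723536 for F3, both on the plus strand of GRCm38.p6.
Plaur: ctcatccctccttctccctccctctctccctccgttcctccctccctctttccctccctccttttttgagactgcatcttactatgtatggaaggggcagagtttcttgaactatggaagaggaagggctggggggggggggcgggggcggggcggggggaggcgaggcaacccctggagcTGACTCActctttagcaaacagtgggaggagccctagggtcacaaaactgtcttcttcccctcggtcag
F3: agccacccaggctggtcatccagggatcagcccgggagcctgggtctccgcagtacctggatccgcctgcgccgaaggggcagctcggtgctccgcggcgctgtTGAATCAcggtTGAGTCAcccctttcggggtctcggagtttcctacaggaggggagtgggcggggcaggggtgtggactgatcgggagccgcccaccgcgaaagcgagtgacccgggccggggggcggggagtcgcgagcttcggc
The AP-1 letters were found at 69 bases upstream of the start of Plaur and at 146 and 135 bases upstream of that of F3. They were also found in the windows of Fgb and Procr, so in 4 of the 6 members with a promoter sequence, and in 6.75% of the 32851 windows. AP-1 was 1 of several motifs searched. Of the others, NF-kB letters were in 4 members (45.8% of windows), CACCC in 4 (52%), a GC box in 2 (32.7%) and STAT in 2 (7.02%). TEAD letters were in 2 (12.6%), EGR1 in 1 (4.7%) and TATAAA in 0 (12.4%). The AP-1 letters show no binding. Fosl1, which encodes an AP-1 subunit, rose from 0.28 ± 0.12 to 3.34 ± 0.99 FPKM (SD, n = 4) at day 2 (log2 fold change 1.73, SE 0.14).

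Thbd and Procr, the receptors of the protein C pathway, were near sham at day 2 and high from day 7 to the last time of recovery. Thbd (ENSMUSG00000074743.4, chromosome 2, 148404466 to 148408188, minus strand) stood at 3.26, 4.20, 3.03 and 2.41 FPKM in sham and at 2.62, 2.87, 2.79 and 3.86 in UUO2. In UUO7 it stood at 11.1, 13.2, 11.4 and 13.6 FPKM. After reversal it stood at 12.9, 13.8, 14.6 and 13.9 FPKM in R1W, at 16.7, 11.9, 18.5 and 14.8 in R2W and at 14.5, 17.4, 17.4 and 9.70 in R4W. The sham and UUO2 libraries overlapped, and every library of UUO7 and of the recovery groups lay above them. The day 2 log2 fold change of -0.06 (SE 0.16) was not called (adjusted p = 0.782). The mean rose 3.82-fold at day 7 (log2 fold change 1.67, SE 0.16, adjusted p = 6.56e-09) and was 4.57-fold the sham mean at 4 weeks (1.88, SE 0.16, adjusted p = 6.57e-09). No fall after reversal was called: the R4W to UUO7 log2 fold change was 0.21 (SE 0.16, adjusted p = 0.277), and 0.39 without R4W replicate 4 (adjusted p = 0.0329).

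Procr (ENSMUSG00000027611.12, chromosome 2, 155751117 to 155755471) stood at 0.80, 1.42, 0.78 and 0.93 FPKM in sham and at 0.97, 1.00, 1.19 and 1.73 in UUO2. In UUO7 it stood at 6.68, 5.47, 5.61 and 6.75 FPKM. After reversal it stood at 3.90, 5.80, 5.32 and 3.80 FPKM in R1W, at 6.97, 3.90, 6.99 and 4.30 in R2W and at 4.50, 6.20, 6.66 and 3.73 in R4W. As for Thbd, sham and UUO2 overlapped and all later libraries were higher. The mean was 1.24-fold the sham mean at day 2 (log2 fold change 0.16, SE 0.18, adjusted p = 0.477), 6.24-fold at day 7 (1.85, SE 0.18, adjusted p = 1.00e-08) and 5.37-fold at 4 weeks (1.65, SE 0.18, adjusted p = 1.74e-07). The R4W to UUO7 difference of -0.21 (SE 0.18) was not called (adjusted p = 0.354).

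Both genes are known from endothelium, so its markers were read beside them. Their summed levels are those given beside Plat. In UUO2 0 of the 12 were called higher and 5 lower (10 after rescaling), where 32.3% of all genes were called higher and 17.0% lower. In UUO7 11 were called higher and in R4W all 12, against 60.1% and 54.8% of all genes. The mean log2 level of the markers was subtracted from that of each gene. The difference for Thbd was -1.46 ± 0.20 in sham, -1.02 ± 0.27 in UUO2 and -1.02 ± 0.09 in UUO7 (SD, n = 4 each), and both rises of 0.45 gave an exact permutation p of 0.0286 (adjusted p = 0.0440). For Procr the difference rose by 0.67 in UUO2 and 0.63 in UUO7 (exact permutation p = 0.0286 each, adjusted p = 0.0440). In UUO2 neither gene itself was called, and the marker level subtracted went from 3.53 ± 0.28 in sham to 3.02 ± 0.44. In R4W the differences from sham of 0.73 for Thbd and 0.50 for Procr came from overlapping libraries and were not called (exact permutation p = 0.0857 and 0.114, adjusted p = 0.122 and 0.143), but were called with a pseudocount of 0.1 (0.91 and 1.07, adjusted p = 0.0381 each). The UUO2 rises were also not called with a pseudocount of 10 (adjusted p = 0.152 for both). The UUO7 values were then -0.07 for Thbd and -0.27 for Procr, so the direction at day 7 depends on that choice. The adjusted p-values of these differences also lean in part on the tests of Fgg ratios, which share the adjustment. The summed level of 8 macrophage markers was 55.6 to 95.4 FPKM in sham, 97.3 to 223 in UUO2, 1155 to 1369 in UUO7 and 784 to 1565 in R4W. Of the 8, 6 were called higher and 1 lower in UUO2, and all 8 higher in UUO7 and in R4W, against the same shares of all genes. Their part in the Thbd and Procr levels was not tested.

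**Figure D3:**
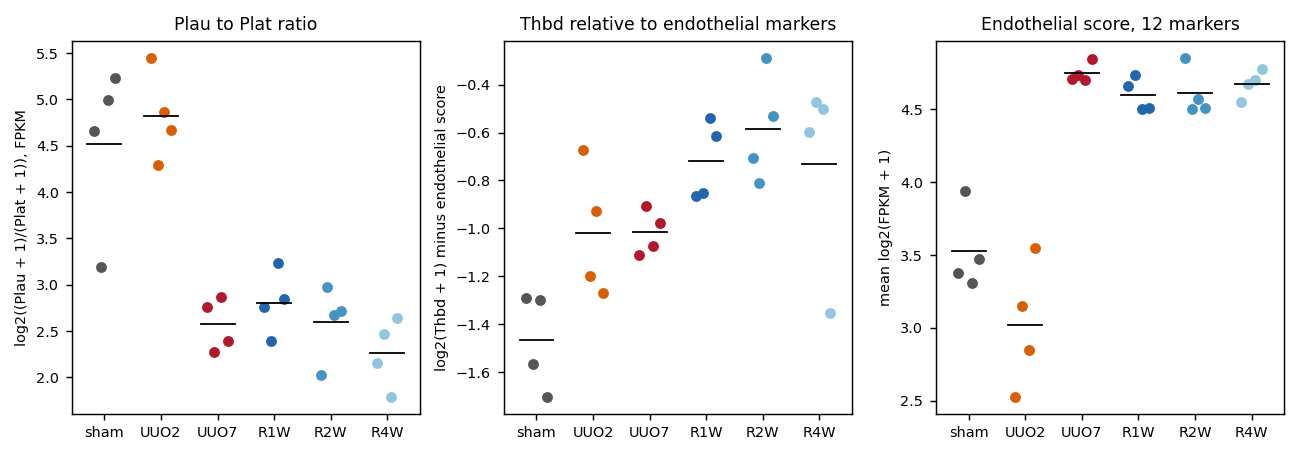
Left, log2 ratio of Plau to Plat with 1 FPKM added to each. Middle, log2(FPKM + 1) of Thbd minus the mean log2 level of 12 endothelial markers. Right, that mean marker level itself, with 1 point per library and a line at the mean in each panel. The activator ratio drops from 4.52 in sham to 2.58 in UUO7, and the endothelial level rises from 3.53 to 4.75.

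The counts that follow for day 2, day 7 and R4W against UUO7 hold Fgg, which was chosen by its day 2 and day 7 values. Counted over the 9 genes, 5 were called higher than sham at day 2 and 4 of these by at least 2-fold, where 32.3% of all genes were called higher and 5.74% by at least 2-fold. At day 7 all 9 were called higher and 8 by at least 2-fold, against 60.1% and 21.8% of all genes. The median log2 fold change of all genes was 0.09 at day 2 and 0.42 at day 7, and Plau, the member not called by 2-fold at day 7, lay below that median. At 1 week of recovery 8 were called higher than sham (59.4% of all genes) and at 2 weeks 7 (56.1%). The Fga call at 1 week (log2 fold change 0.64, adjusted p = 0.0400) was lost after rescaling (0.22, adjusted p = 0.495) and on leaving out sham replicate 1, 2 or 4 or R1W replicate 2, 3 or 4 (adjusted p of 0.0502, 0.0817, 0.0934, 0.0853, 0.0610 and 0.0927). At 4 weeks 6 were called higher and 5 by at least 2-fold, against 54.8% and 14.2%, while Plau was called lower, as were 11.6% of all genes. Against UUO7, 6 of the 9 were called lower at 4 weeks, namely the 3 fibrinogen genes, Plau, Plaur and F3, where 30.8% of all genes were called lower. Between 1 and 4 weeks of recovery Fgb, Fgg and Plau were called lower, with 14.1% of all genes, and this count was 1 after rescaling and 0 in a fit on those 2 groups or without R1W replicate 3. It was 1 on leaving out R4W replicate 1, 3 or 4. In the authors' deposited table Fga was also lower at 4 weeks than at 1 week (log2 fold change -0.60, adjusted p = 0.000892). Fgb, Fgg and Plau were lower there too, with adjusted p of 0.00123, 0.0132 and 0.0133.

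**Figure D4:**
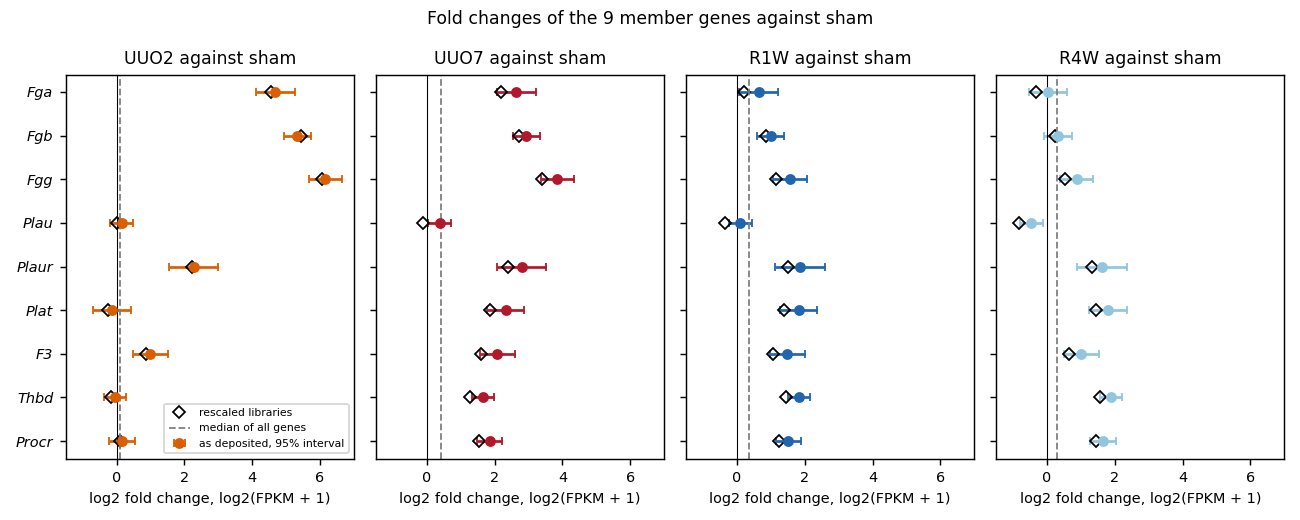
Log2 fold change against sham of the 9 genes at UUO2, UUO7, R1W and R4W, with 95% intervals (filled points), the same after rescaling the libraries (open diamonds) and the median of all genes (dashed line). Fga, Fgb and Fgg lie at 4.68 or more in UUO2 and at 0.87 or less in R4W, whereas Plat, Thbd and Procr lie at 1.65 or more from UUO7 onward, except for Procr at 1.52 in R1W.

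The order of the levels changed between groups. In sham, Plau (304 FPKM) was followed by F3 (15.3), Plat (13.8) and Fga (12.1), which did not differ beyond their spread. Fgg (6.63) came next, then Plaur (3.39) and Thbd (3.23), which overlapped, and Plaur reached the range of Fgg only in sham replicate 2. Procr (0.98) and Fgb (0.22) were lowest. In UUO2, Fgg (573 FPKM) and Fga (366) stood above Plau (335), and the spreads of the 3 overlapped. In UUO7 Plau (391 FPKM) led again, followed by Fgg (112) and Fga (82.2), whose ranges overlapped, and by F3 (67.0) and Plat (65.0), whose ranges overlapped each other and that of Fga. In R4W Plau (219 FPKM) was followed by Plat (44.8) and F3 (31.6), and then by Thbd (14.7), Fgg (13.3), Fga (12.4) and Plaur (11.2), whose ranges overlapped.

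Other genes of the plasminogen system were called higher in large part. Of the 24 listed, 18 had a row, and Plg, Serpinb2, A2m, Itgb3, Vtn and Hgf are not analysed here. At day 2, 10 were called higher and 1 lower, with a median log2 fold change of 0.68 against 0.09 over all genes. At day 7 the counts were 16 higher and 1 lower (median 2.26 against 0.42), and at 4 weeks of recovery 15 and 2 (1.68 against 0.30), or 12 and 2 after rescaling. Of all genes 32.3%, 60.1% and 54.8% were called higher at these times, and 17.0%, 17.8% and 11.6% lower. Serpine2, which encodes an inhibitor of these proteases, rose from 6.00 ± 0.82 FPKM in sham to 98.1 ± 15.4 in UUO7 (SD, n = 4; log2 fold change 3.82, SE 0.27). Anxa2, which encodes a surface receptor of plasminogen and tissue-type activator, rose at day 2 from 38.2 ± 21.1 to 113 ± 40 FPKM (1.62, SE 0.26). Stmn1 was also among the genes with the largest rise at day 2 (1.54, SE 0.17), and it encodes a tubulin-binding protein rather than an enzyme of this system. It was called higher at all 3 times and is included in these counts. Serpinf2, the gene of the plasmin inhibitor alpha-2-antiplasmin, fell from 231 ± 30 FPKM in sham to 82.9 ± 17.5 in UUO7 (-1.48, SE 0.23). At 4 weeks the largest rises were of Itgb2, an integrin chain of leukocytes (3.12, SE 0.23), and Serping1, the C1 inhibitor gene (3.05, SE 0.27), and Eno1, a glycolytic enzyme that can bind plasminogen, was called lower at -0.18 (SE 0.08).

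Of the 18 coagulation factors listed, 7 had a row, and 1 was called higher and 2 lower at day 2, 2 and 2 at day 7 and 3 and 1 at 4 weeks, with medians of -0.21, 0.18 and 0.08 against 0.09, 0.42 and 0.30 over all genes. After rescaling the counts at 4 weeks were 1 higher and 3 lower. Over all genes 32.3%, 60.1% and 54.8% were called higher, and 17.0%, 17.8% and 11.6% lower. Tgm2, the tissue transglutaminase gene, rose from 64.5 ± 2.9 FPKM in sham to 146 ± 19 in UUO2 (SD, n = 4; log2 fold change 1.16, SE 0.11). Vwf, which encodes the adhesive protein of platelets and vessel walls, rose from 1.62 ± 1.30 to 10.7 ± 2.5 FPKM in UUO7 (2.24, SE 0.36), together with the endothelial markers given above. F13b, the carrier chain of factor XIII, fell from 42.6 ± 4.2 to 9.27 ± 2.04 FPKM in UUO7 (-2.10, SE 0.20). Kng2, a kininogen gene with a near-identical copy that makes its counts uncertain, was called lower at both obstruction times (-0.42 and -0.77).

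Among anticoagulants, 12 of 14 had a row, with 5 called higher and 2 lower at day 2, 8 and 3 at day 7 and 7 and 3 at 4 weeks (medians 0.38, 0.99 and 0.73 against 0.09, 0.42 and 0.30 over all genes). The counts of 8 and 7 of 12 lie near the 60.1% and 54.8% of all genes called higher at day 7 and 4 weeks. At day 2, 32.3% of all genes were called higher. Called lower were 17.0%, 17.8% and 11.6% of all genes at day 2, day 7 and 4 weeks. Serpina10, which encodes the protein Z-dependent inhibitor of factor Xa, rose from 1.36 ± 0.73 FPKM in sham to 82.3 ± 29.5 in UUO2 and 85.4 ± 9.6 in UUO7 (SD, n = 4; log2 fold changes 5.10 and 5.23, SE 0.27). Its level fell from UUO7 to R1W (-1.17, SE 0.27, adjusted p = 0.00780). Proz, the gene of its cofactor protein Z, fell at both times (-0.95 and -1.15). Pros1, the gene of protein S, rose from 4.99 ± 1.30 to 41.6 ± 3.2 FPKM in UUO7 (2.85, SE 0.16), and Proc, the gene of protein C, fell from 168 ± 19 to 71.6 ± 8.9 (-1.22, SE 0.18). The receptors Thbd and Procr and the cofactor Pros1 were called higher in UUO7 while Proc was called lower. Tfpi2, a protease inhibitor gene, was called higher at day 2 (1.01, SE 0.14) and lower at day 7 (-0.52) and at 4 weeks (-0.59).

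Of 7 genes of thrombin and platelet signalling, mostly receptors, 5 had a row. At day 2, 3 were called higher and 1 lower, and at day 7 and at 4 weeks all 5 were called higher (medians 0.66, 1.42 and 1.22 against 0.09, 0.42 and 0.30 over all genes), where 32.3%, 60.1% and 54.8% of all genes were called higher. At day 2, 17.0% of all genes were called lower. F2r, the gene of the thrombin receptor PAR1, rose from 5.98 ± 1.89 FPKM in sham to 57.4 ± 7.8 in UUO7 (SD, n = 4; log2 fold change 3.09, SE 0.17). It fell to 31.6 ± 4.4 FPKM by R1W (-0.84, SE 0.17, adjusted p = 0.00394) and stood at 21.8 ± 3.8 in R4W. F2rl1, the gene of PAR2, which trypsin-like proteases activate, rose from 8.12 ± 3.11 to 15.5 ± 3.4 FPKM at day 2 (0.88, SE 0.18). Itgb1, a widely expressed integrin chain, rose at day 2 (0.73, SE 0.11) and Tbxa2r, the thromboxane receptor gene, fell (-0.54, SE 0.13). Ptgis, the prostacyclin synthase gene, rose at day 7 (1.55, SE 0.16) and stood at 1.63 (SE 0.16) at 4 weeks.

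**Figure D5:**
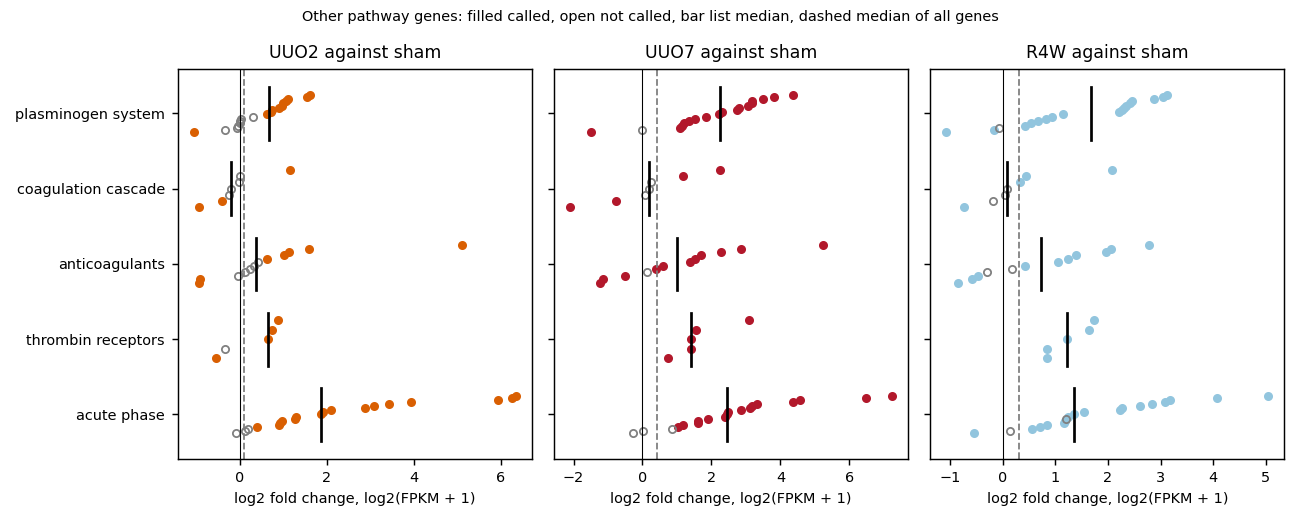
Log2 fold change against sham of the other pathway genes in UUO2, UUO7 and R4W, 1 point per gene (filled where called), with a bar at each list's median and a dashed line at the median of all genes. The plasminogen system median lies at 0.68, 2.26 and 1.68, and that of the coagulation factors at -0.21, 0.18 and 0.08.

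Genes of acute-phase proteins and of their interleukin-6 signalling were mostly called higher at each of these times. Of the 27 listed, 19 had a row, and 16 were called higher and 0 lower at day 2, 16 and 0 at day 7 and 16 and 1 at 4 weeks (medians 1.86, 2.46 and 1.35 against 0.09, 0.42 and 0.30 over all genes), where 32.3%, 60.1% and 54.8% of all genes were called higher. Called lower at these times were 17.0%, 17.8% and 11.6% of all genes. Lcn2, which encodes an iron-siderophore-binding protein, rose from 6.43 ± 6.57 FPKM in sham to 451 ± 68 in UUO2 and 887 ± 157 in UUO7 (SD, n = 4; log2 fold changes 6.27 and 7.24, SE 0.40). C3, the gene of the central complement component, rose from 3.79 ± 2.48 to 363 ± 66 and 395 ± 22 FPKM (6.35 and 6.49, SE 0.33). The means of both were higher at day 7 than at day 2, a difference that was not tested, whereas the fibrinogen means were lower. Saa1, a serum amyloid gene with a near-identical copy that makes its counts uncertain, was named after its values were seen. It went from 0.02 ± 0.04 FPKM in sham to 63.7 ± 19.6 in UUO2 and 4.82 ± 1.79 in UUO7. From UUO2 to UUO7 the means of Lrg1 (85.7 to 28.6 FPKM), Apcs (3.075 to 1.065), Saa3 (1.94 to 1.235) and Orm1 (0.32 to 0.16) were also lower. Those of all other acute-phase genes with a row were higher. These genes too were named after their values were seen.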

How the data were processed

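Kidney RNA of 24 mice in 6 groups of 4 was measured by sequencing of polyA-selected libraries, per the labels' protocols. The authors deposited 1 table with a value per gene and library. Per the file headers no unit is named, and FPKM was inferred from the values: the deposited FPKM columns sum to 717415 to 830179, and the sums weighted by transcript length differ by a ratio of 1.08. FastQC, Bowtie2, RSEM, DESeq2 and the mm10 build are named per the submitters' processing notes, with no roles or versions. The table also holds the authors' deposited log2 fold changes and adjusted p-values per comparison. The smallest gene mean was 1 FPKM, so weaker genes are not analysed here. Depth limits low values most, and the 20 libraries with readable steps imply 24400000 to 35300000 fragments. Depth of the UUO2 libraries is unknown.

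The limma package (version 3.58.1, R 4.3.3) gave moderated tests of log2(FPKM + 1) with an intensity trend. The model held 1 coefficient per group over the 24 libraries, and Benjamini-Hochberg adjustment covered 14785 genes. Ratios within a library were tested with two-sided exact permutation tests. Their Benjamini-Hochberg adjustment covered 20 tests, those of Fgg ratios included. The labels describe replicates as separate mice. The script was tested on simulated data for UUO7 against sham with 14785 genes: 174 of 200 genes changed by a log2 fold of 1 were recovered, with 6 false calls. Motifs were searched with Python 3.11.15 in RefSeq promoter windows.

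The members and lists were chosen with earlier results of these data known. Of each pathway list, the 2 genes called higher and the 2 called lower with the greatest log2 fold change against sham in UUO2, UUO7 and R4W were eligible to be named, and for each member the 3 genes of highest correlation. Some genes that this rule names are not reported here. Alternatives were rescaled libraries, pseudocounts of 0.1 and 10, a mean of at least 5 FPKM, a replicate block, a fit on 2 groups, R4W replicate 2 placed in R2W, and leaving out each library. Leaving out replicate 2 of both sham and UUO2 was added after the data were seen.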

Additional observations from a re-analysis of the deposited data

Results flagged for a closer look

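In groups of 4, a library was singled out when its gap to the nearest other library took a share of the group's range above Dixon's 95% critical value. Of 84 such checks 10 met this, where chance gives about 1 in 20, or 4.2. They fall on 7 libraries.

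UUO2 replicate 2 was low for Fgb, at 29.1 FPKM against 54.7 to 59.2 in the others, for Plau, at 282 against 349.3 to 356.6, and for Plaur, at 6.8 against 23.7 to 25.3. Sham replicate 2 was high for Plaur, at 7.41 FPKM against 1.91 to 2.31, and for Plat, at 28.18 against 8.19 to 9.76. Both libraries also stood apart in marker genes.

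Single values stood apart in 5 other libraries. R4W replicate 1, which also stood apart in adipose markers, had 14.4 FPKM of Fga against 11.46 to 11.8, and R2W replicate 3 had 1.62 FPKM of Fgb against 0.75 to 0.84. R1W replicate 1 had 17.65 FPKM of Fgg against 22.56 to 23.27, and UUO7 replicate 4 had 22.21 FPKM of Plaur against 27.28 to 28.32. In R4W replicate 4, Thbd minus the endothelial level was -1.355 on the log2 scale, against -0.598 to -0.474 in the others.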

How the results depend on the processing

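Of 1081 refits of 72 member fold changes, 1007 kept their direction and call, 22 reversed, 42 lost and 10 gained the call, and the cause was not tested. Rescaling removed a shift of the median gene of 0.42 in UUO7 and 0.30 in R4W against sham.

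After rescaling, signs turned for Plau in UUO7 (-0.10) and R1W (-0.34) and for Fga in R2W (-0.013) and R4W (-0.32) against sham, and for Plat in R4W against R1W (0.045). With R4W replicate 2 placed in R2W, Thbd in R4W against R1W was -0.027. Without replicate 2 of sham and UUO2, chosen after seeing the data, Plat (0.15) and Thbd (0.063) in UUO2 and Fga in R4W (-0.017) turned.

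Members called between R4W and R1W numbered 3, but 1 after rescaling, 1 with a pseudocount of 10 and 0 in the fit on 2 groups, which called 161 of all genes against 2830. That fit called 6 members, not 3, between R1W and UUO7, and both counts hold Fgg. At 2-fold, a pseudocount of 0.1 gave 1 member between R4W and R1W. A pseudocount of 10 gave 5 in UUO7, 2 in R1W, 1 in R2W and 1 in R4W against sham and 2 between R4W and UUO7.

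With a pseudocount of 0.1, Fgg to Fgb was -0.894 in UUO2 and -0.693 in UUO7 against sham and 0.133 in R1W against UUO7, and Thbd and Procr minus the endothelial level in R4W were 0.908 and 1.07 and were then called. With a pseudocount of 10, Plau to Plat was -1.35 and -1.71 in UUO7 and R4W. Fgg to Fga was then 1.09, 0.804 and 0.457 in UUO2, UUO7 and R4W and -0.291 in R1W against UUO7, and Fgg to Fgb was 2.54 and 1.99. Thbd minus the endothelial level was 0.206 in UUO2, -0.070 in UUO7 and 0.213 in R1W against UUO7, and Procr minus it was 0.257, -0.272 and -0.263 in UUO2, UUO7 and R4W.

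Leaving out each replicate in turn gave 0 to 3 members called between R4W and R1W, and 728 to 3491 of all genes, while all genes called between R1W and UUO7 numbered 1116 to 2535. It turned the sign of Plat (-0.311 to 0.245) and Thbd (-0.157 to 0.046) in UUO2, Plau in R2W (-0.252 to 0.043) and Fga in R4W (-0.041 to 0.102) against sham, of Plat (-0.128 to 0.053) and Thbd (-0.027 to 0.233) in R4W against R1W, and of Plau to Plat in UUO2 (-0.147 to 0.535). With 3 libraries a side the ratio tests cannot go below p = 0.0571 (exact), so those refits are values only.

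The replicate numbers of the titles do not pair the mice: the correlation of same-numbered deviations averaged between -0.174 and 0.148 over the 8 comparisons. The replicate block ended 1 member call, that of Fgg in R4W against R1W (adjusted p = 0.0647). Paired tests of the ratios, with 4 pairs of libraries each, could not go below p = 0.125 (exact).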

Other observations

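Transcription factors listed as regulators of these genes were called in both directions. Of 11, 3 were called higher and 3 lower at day 2, 7 and 3 at day 7 and 7 and 3 at 4 weeks, with median log2 fold changes of -0.07, 1.12 and 0.52 against 0.09, 0.42 and 0.30 over all genes. Of all genes 32.3%, 60.1% and 54.8% were called higher and 17.0%, 17.8% and 11.6% lower, and the counts higher at day 2 and day 7 lie near these shares. After rescaling the counts were 6 and 4 at day 7 and 5 and 4 at 4 weeks. Klf6, a zinc finger factor, rose from 4.58 ± 0.84 FPKM in sham to 36.3 ± 16.7 in UUO2 and 46.0 ± 5.1 in UUO7 (SD, n = 4; log2 fold changes 2.60 and 3.08, SE 0.29). Egr1, an immediate early factor, rose to 26.4 ± 2.1 FPKM in UUO7 from 4.34 ± 0.84 (2.37, SE 0.50). Hnf4a, a factor of liver and proximal tubule, fell from 182 ± 19 FPKM to 63.0 ± 8.1 in UUO7 (-1.52, SE 0.16). Etv5 was called lower at day 2 (-0.70, SE 0.12).

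The genes most like each member over the 24 libraries were ranked by Pearson's r of log2(FPKM + 1), as a description in which the libraries share their groups. For Fga they were Slc13a1 (0.982), Ablim3 (0.976) and Nectin1 (0.976), for Fgb Ablim3 (0.976), Nectin1 (0.976) and Npl (0.974), and for Fgg Cpn1 (0.972), Ablim3 (0.972) and Trib3 (0.966). For Plaur they were Ajuba (0.977), Pvr (0.972) and Tnfaip1 (0.970), for Plat Cacnb3 (0.980) and Nos3 (0.974), and for F3 Dok4 (0.971), Golt1b (0.968) and Pdgfb (0.968). For Thbd they were Slamf8 (0.991), Plbd1 (0.989) and Stk10 (0.989), and for Procr Dennd1c (0.991), Inpp5d (0.984) and B3gnt3 (0.984). The values for Plau were lower, at 0.833 for Syne4, 0.828 for Sco2 and 0.792 for Ybx1.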
